A study of Mus musculus with 12 samples.

Results

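The comparison described here sets brains of mice with experimental cerebral malaria (ECM) that received artesunate for 4 days against brains of untreated mice with ECM. Its members were chosen by their labels and not by any measured value: the 4 libraries of artesunate-treated ECM and the 4 libraries of ECM, 8 of the 12 libraries in the study. All mice were wild-type C57BL/6 animals aged 6 weeks, the sample was brain, and gene expression was measured by RNA-seq of total RNA. The remaining 4 libraries, from control mice without ECM, give the background level of each gene and are not themselves the subject. The sources used here do not name the parasite, its dose, the dose of artesunate or the day after infection. Nothing in the labels states that libraries of a group came from separate animals, so the p-values measure the spread between these samples, which may in part be technical. The groups are also different mice, so "rose" and "fell" compare treated with untreated libraries and do not follow an animal over time.

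Cerebral malaria is a complication of infection with Plasmodium parasites in which infected red cells and leukocytes gather in the small vessels of the brain. In mouse models, CD8 T cells, interferon-gamma and inflammatory monocytes are known drivers of the disease, and the endothelium, microglia and astrocytes react to them. Artesunate is an artemisinin derivative that kills the blood stages of the parasite, and it is the standard drug for severe malaria. Interferons act through linked programmes: type I interferons act mainly on genes with an interferon-stimulated response element, while interferon-gamma acts mainly on genes with a gamma-activated site, followed by IRF1.

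The libraries held 12767654 to 18063035 reads assigned to genes. Markers of the labelled tissue were present: the 24 neuronal genes measured summed to 13800 to 18500 CPM (read counts scaled to the size of the library) in ECM and to 14500 to 16600 CPM in treated ECM. Some libraries stood apart. Mitochondrial genes took 15.8% of reads in ECM 2 and 13.7% in ECM 3, against 8.24% in ECM 1, 5.79% in ECM 4 and 4.96 to 5.49% in the treated libraries. In ECM 2 and ECM 3, and also in control 4, genes of high GC content were under-represented (rank correlation of level with GC content -0.326, -0.474 and -0.663), whereas the treated libraries lay between 0.409 and 0.522. The mean log2 CPM of cerebellar marker genes ran from 3.04 to 8.2 in ECM and from 4.73 to 7.65 in treated ECM, so this level differed between libraries of 1 group. Results were repeated without those libraries, with GC-content offsets and with the cerebellar level as a covariate, and what the differences contribute beyond those repeats was not tested.

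Of 14599 genes tested, 1214 (8.32%) differed between treated and untreated ECM at an adjusted p below 0.05, the threshold for a call throughout. Of these, 460 (3.15% of all tested) were higher and 754 (5.16%) were lower after treatment. These shares are the background for every list count below. Fold changes are given as log2 ratios of treated over untreated ECM with their standard error (SE), and the median over all tested genes was 0.003. The genes that fell did so by more: their median was -1.21 and 136 of them fell at least 4-fold, while the genes that rose had a median of 0.95 and 31 rose at least 4-fold. In 726 of the 754 lower genes and 453 of the 460 higher genes, the treated libraries did not overlap the 4 untreated ones. For 826 tested genes treated ECM 4 was left out, because its value was damaged in the count table. Across all tested genes, 10.7% had every treated library below every untreated one and 11.1% had the reverse. Without ECM 2 and ECM 3, 207 genes were higher and 374 lower. Counts also moved by more than 1.5 times when 1 library was left out: the total fell to 599, 550, 588 and 629 without treated 1, 2, 3 and 4, and rose to 2005 without ECM 4 and 2093 without control 4. In each of these repeats, every called gene that could be fitted kept its direction. The repeats reuse the libraries in which these genes were called, so a kept direction was largely fixed in advance. Calls reported below as lost for single genes leave out a fit with the replicate number as a block, given near the end.

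**Figure D1:**
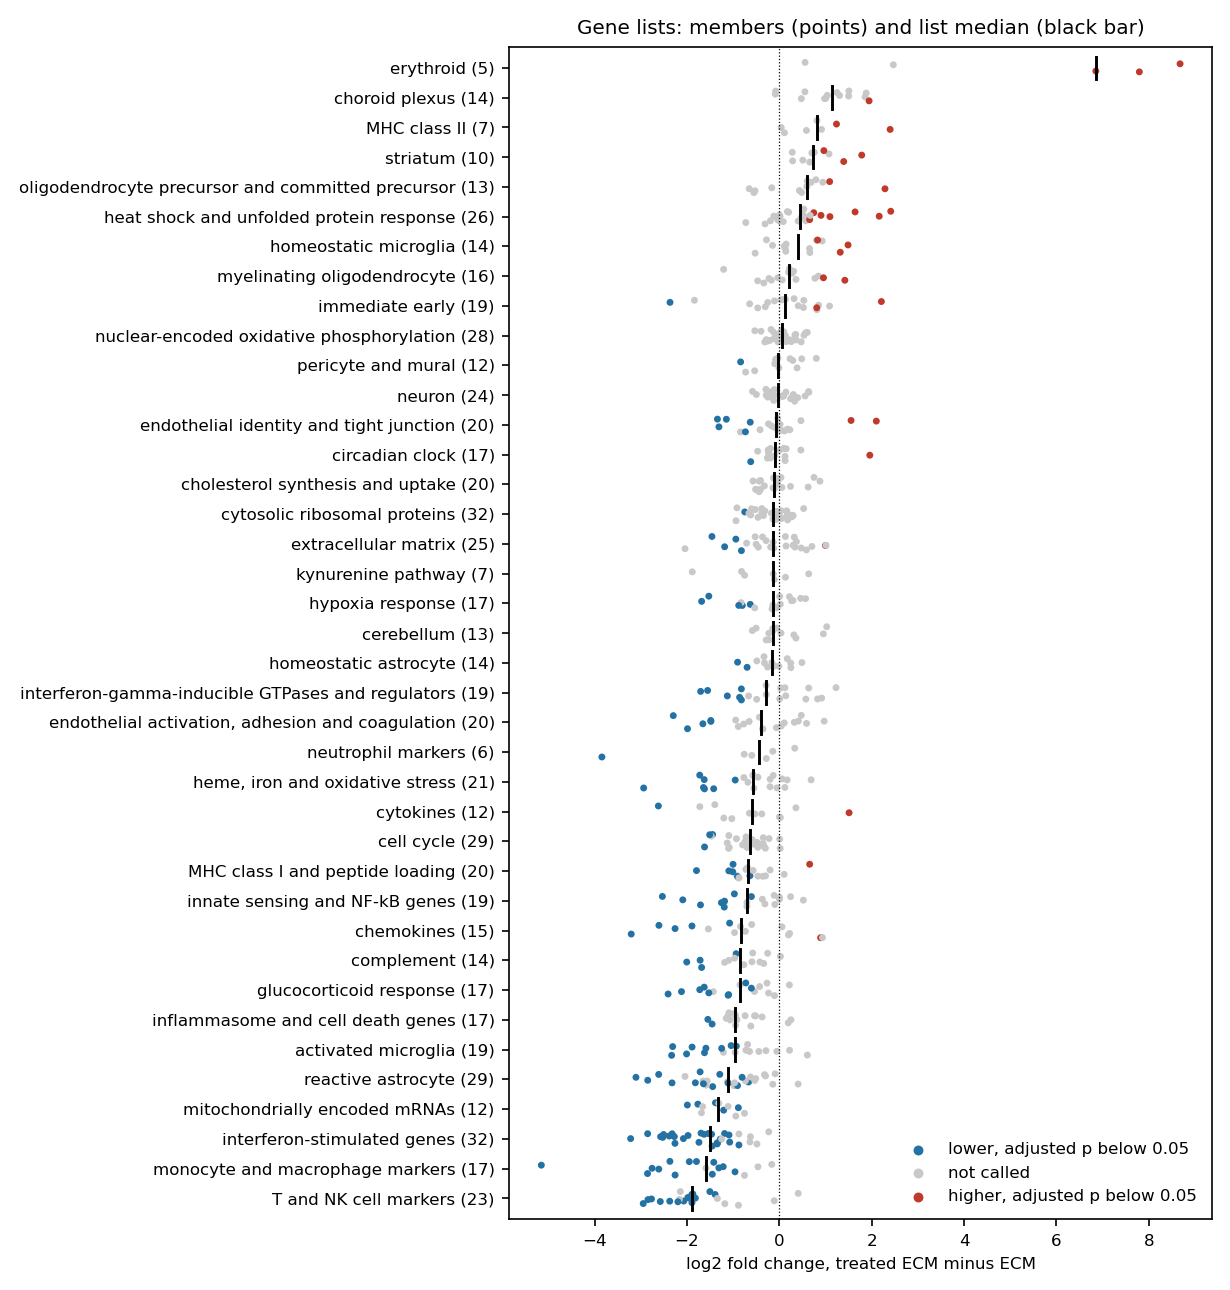
Members of the gene lists with at least 5 tested genes (points) by log2 fold change of treated over untreated ECM on the horizontal axis, with the list median as a black bar and the number of tested genes in brackets. Blue points fell and red points rose at an adjusted p below 0.05, and grey points did not pass. T and NK cell markers have the lowest median (-1.90), the neuron list lies at -0.03, and the erythroid list has the highest median (6.85).

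Interferon-stimulated genes of the antiviral, type I set fell widely: 26 of 32 members were called lower, against 5.16% of all tested genes, and the other 6 did not pass the test, with a median of -1.49 beside 0.003 over all tested genes. With ECM 2 and ECM 3 left out, the count was 20, with a median of -1.21. Rsad2 encodes viperin, an antiviral enzyme that makes a chain-terminating nucleotide. Its level was 44, 67.4, 75.9 and 40.2 CPM in ECM 1 to 4 and 7.14, 6.41, 8.82 and 9.13 CPM in treated 1 to 4. Treated and untreated libraries were far apart and did not overlap (log2 fold change -2.85 ± 0.26, adjusted p = 0.000205), with control libraries lower still, at 0.845–1.86 CPM. Mx1, a dynamin-like GTPase that blocks virus replication, showed the same picture, with 9.94, 18.1, 14.8 and 8.45 CPM in ECM and 0.988, 1.18, 1.72 and 1.59 CPM after treatment. Its groups did not overlap (log2 fold change -3.22 ± 0.31, adjusted p = 0.000205). The level of Ifit1, a sensor of foreign RNA caps, lay at 68.9–188 CPM in ECM and at 14.6–28.3 CPM in treated ECM (log2 fold change -2.57 ± 0.35, adjusted p = 0.00131). Relative to control libraries the list had a median of 3.89 in ECM (32 of 32 members called higher, against 7.1% of all tested genes) and of 2.0 in treated ECM (25 of 32 called higher, against 1.98% of all tested genes, and none lower, against 0.0548%). Both of these comparisons share libraries with the main one, so they are given side by side only.

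Fewer genes of the set induced mainly by interferon-gamma fell. Of 19 tested guanylate-binding proteins, immunity-related GTPases and their regulators, 6 were called lower (Gbp3, Gbp6, Iigp1, Irgm1, Irf8 and Nlrc5) and 13 did not pass, with a median of -0.28. The count was 2 without ECM 2 and ECM 3, with a median of 0.06, so the sign of the list median turned, and it was 3 without treated 1 or without treated 2. In the fit without ECM 2 and ECM 3, 1 member was called higher, and 1 was also called higher with GC-content offsets, with the cerebellar covariate and without ECM 3 alone. Gbp2, a GTPase that attacks the membrane around intracellular pathogens, had 192, 391, 298 and 156 CPM in ECM and 123, 231, 235 and 263 CPM after treatment. The groups overlapped (log2 fold change -0.29 ± 0.28, adjusted p = 0.544), and both lay far above the 4.33–5.58 CPM of the controls. Irf1, the transcription factor that relays the interferon-gamma signal, was at 33.4, 31.1, 32.6 and 35.1 CPM in ECM and 25.3, 38.8, 42 and 37.8 CPM in treated ECM. These groups overlapped too (log2 fold change 0.12 ± 0.19, adjusted p = 0.706), with controls at 2.92–4.6 CPM. Interferon-gamma itself (Ifng) was listed at 0 in all 4 control libraries, at 1.42, 4.0, 4.07 and 1.87 CPM in ECM and at 0.714, 1.32, 1.19 and 2.32 CPM after treatment, with overlapping groups (log2 fold change -1.03 ± 0.47, adjusted p = 0.20). Iigp1, an immunity-related GTPase that coats pathogen vacuoles, was called lower, with 168, 247, 223 and 101 CPM in ECM and 59.2, 86.3, 92.9 and 101 CPM in treated ECM. The lowest untreated library, ECM 4, lay next to the highest treated one, treated 4 (log2 fold change -1.13 ± 0.26, adjusted p = 0.0194), and the call was lost without ECM 2 and ECM 3 together, treated 1 or 2 or ECM 2, ECM 3 and control 4 together. Against control, 17 of the 19 members were still called higher in treated ECM (1.98% of all tested genes), with a median of 3.54. In untreated ECM it was 16 of 19 (7.1% of all tested genes), with a median of 4.28. The difference between the type I and the interferon-gamma lists was not itself tested.

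**Figure D2:**
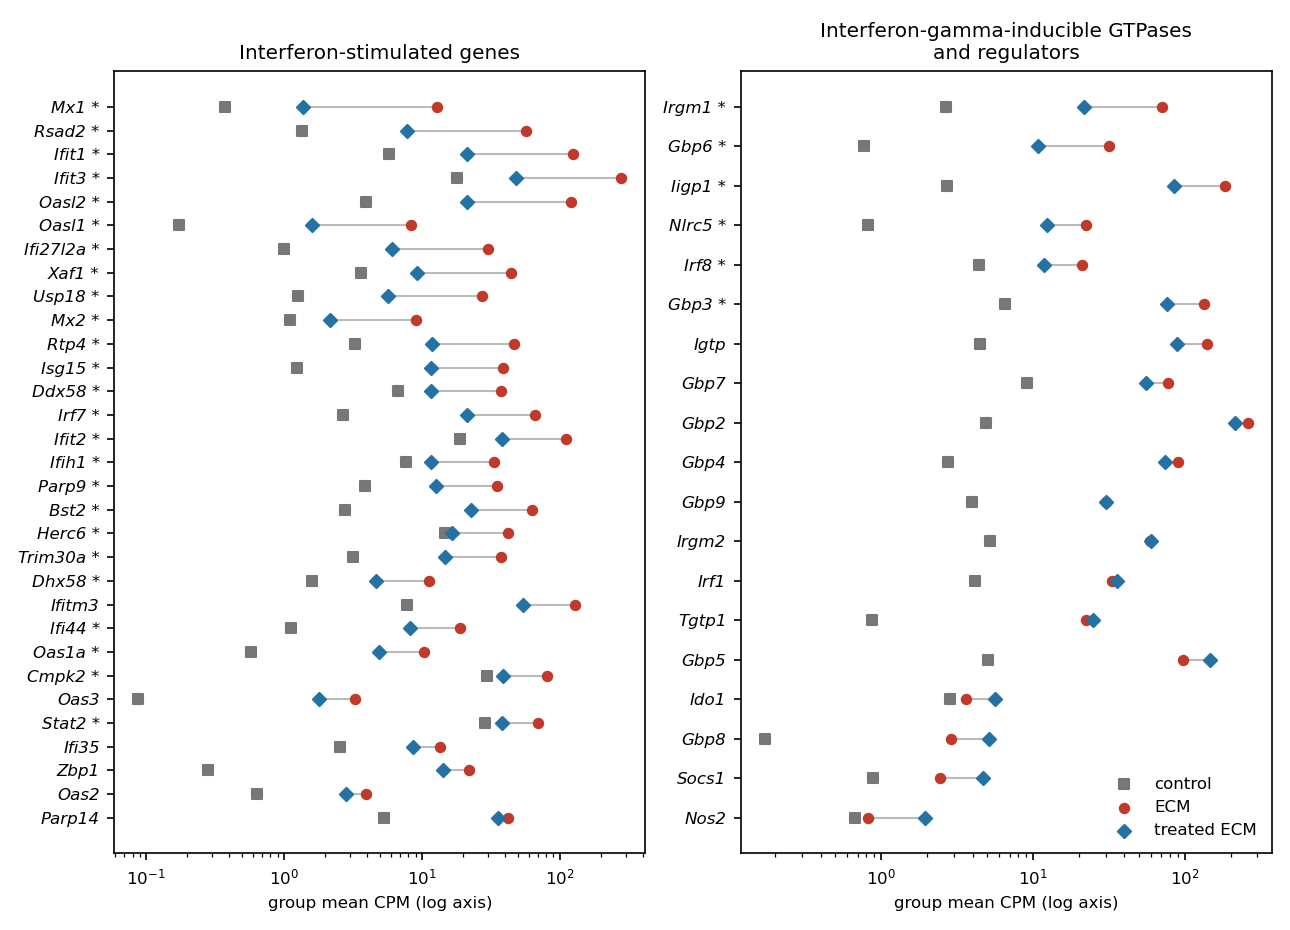
Group mean CPM on a log axis for 31 genes of the interferon-stimulated list (left) and the 19 of the interferon-gamma-inducible list (right). Grey squares are control, red circles ECM and blue diamonds treated ECM. Each is the mean of 4 libraries, without treated ECM 4 where its value was damaged in the count table. An asterisk marks a called difference between treated and untreated ECM. Genes are ordered by fold change. On the left 25 of 31 genes carry an asterisk, and on the right 6 of 19, with blue and red symbols close together at Gbp2 and Irf1 and far from the grey ones.

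Promoter sequences of genes that carried these results were read from RefSeq (GRCm38.p6), as the 250 bases before the annotated start. The core of the interferon-stimulated response element was searched as GAAA, 2 bases of any kind and GAAA, and the gamma-activated site as TTCNNNGAA, both on either strand. For the core of the response element, 43 of 564 called-lower genes with a sequence had a match (7.62%), against 2.16% of called-higher genes, 2.49% of genes not called and 3.04% of all 27025 promoters. Gamma-activated site letters were found in 8.51% of called-lower genes, 6.22% of called-higher genes, 5.75% of genes not called and 7.18% of all promoters. Among the interferon-stimulated list 9 of 21 promoters held the response element core and 3 held the gamma-activated site. Among the interferon-gamma list it was 9 of 11 and 7 of 11. A match describes letters in this window and says nothing about binding. Sequences were examined for 28 named genes, and other called genes, such as Iigp1 and Gpr17, were not among them. Of the 17 that fell 4 held a match and 13 held none, and none of the 11 that rose held one. Those 4 are shown with the match in capitals, and Slco1c1, which rose, is shown as a sequence without one. Rsad2 and B2m (the light chain of MHC class I) hold the response element core. Chil3 (a monocyte-derived chitinase-like protein) and Il1r2 (the decoy receptor for interleukin-1) hold the gamma-activated site.
Rsad2, chr12:26456453-26456702, minus strand: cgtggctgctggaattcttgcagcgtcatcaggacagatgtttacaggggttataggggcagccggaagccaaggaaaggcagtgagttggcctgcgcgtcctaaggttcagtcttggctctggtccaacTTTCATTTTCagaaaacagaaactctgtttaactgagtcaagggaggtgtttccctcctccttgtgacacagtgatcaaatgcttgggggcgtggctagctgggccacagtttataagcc
B2m, chr2:122147437-122147686, plus strand: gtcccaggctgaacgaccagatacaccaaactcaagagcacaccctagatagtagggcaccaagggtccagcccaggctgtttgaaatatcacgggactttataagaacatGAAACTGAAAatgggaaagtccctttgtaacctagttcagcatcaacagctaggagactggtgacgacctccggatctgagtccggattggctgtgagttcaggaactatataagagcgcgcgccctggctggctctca
Chil3, chr3:106167565-106167814, minus strand: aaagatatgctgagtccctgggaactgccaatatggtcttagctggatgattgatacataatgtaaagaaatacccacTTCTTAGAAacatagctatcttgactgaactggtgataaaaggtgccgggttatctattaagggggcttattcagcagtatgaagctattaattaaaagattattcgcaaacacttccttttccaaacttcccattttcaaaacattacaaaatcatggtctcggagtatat
Il1r2, chr1:40085843-40086092, plus strand: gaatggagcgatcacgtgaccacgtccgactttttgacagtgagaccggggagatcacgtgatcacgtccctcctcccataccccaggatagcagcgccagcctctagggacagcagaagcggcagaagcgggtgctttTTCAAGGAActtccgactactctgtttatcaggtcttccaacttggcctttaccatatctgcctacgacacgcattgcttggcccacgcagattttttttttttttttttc
Slco1c1, chr6:141524104-141524353, plus strand: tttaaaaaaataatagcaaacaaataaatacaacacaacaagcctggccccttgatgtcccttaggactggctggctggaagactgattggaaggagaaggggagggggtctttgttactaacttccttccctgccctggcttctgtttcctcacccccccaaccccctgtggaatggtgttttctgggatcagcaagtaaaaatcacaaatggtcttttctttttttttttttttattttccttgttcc

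Antigen presentation genes moved in both directions. In the MHC class I list 6 of 20 members fell (B2m, H2-T23, Tap1, Psmb8, Psme1 and Erap1), and the list median was -0.68. Over all tested genes 5.16% fell. B2m had 564, 1571, 979 and 535 CPM in ECM and 186, 297, 240.4 and 329 CPM after treatment, with no overlap (log2 fold change -1.79 ± 0.36, adjusted p = 0.00985), though the call was lost without ECM 2 and ECM 3 (adjusted p = 0.0791). Tap1, a subunit of the pump that loads peptides into the endoplasmic reticulum, went from 49.3–79.9 CPM to 24.7–38.3 CPM (log2 fold change -1.09 ± 0.20, adjusted p = 0.00529). Its controls were at 2.14–2.99 CPM. The number of lower members depended on single libraries, with 3 without treated 1 or treated 3 and 12 without control 4. It was 4 without ECM 2 and ECM 3. Calr, a chaperone of the list, rose, and no member was called higher without ECM 2 and ECM 3 or without treated 2, 3 or 4, ECM 1 or ECM 2. Cd274, the inhibitory ligand PD-L1, fell from 85–148 CPM to 37.9–64.7 CPM (log2 fold change -1.09 ± 0.21, adjusted p = 0.00728), against 2.66–3.44 CPM in control. That call was also lost without ECM 2 and ECM 3 (adjusted p = 0.0627). Copies of H2 genes are near-identical and can share reads, so their values are uncertain.

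MHC class II genes lay on the other side of 0. All 7 tested members had a fold change above 0, with a median of 0.82, and 2 of them were called higher, H2-Eb1 and Ciita. Over all tested genes 3.15% were called higher. Ciita is the master regulator of class II transcription. It was at 1.97, 0.815, 0.831 and 1.93 CPM in ECM 1 to 4, a range that included the 1.0–1.28 CPM of the controls, and at 4.56, 9.68, 7.3 and 8.27 CPM in treated 1 to 4. All treated libraries exceeded all untreated ones (log2 fold change 2.4 ± 0.34, adjusted p = 0.0016), and this call was kept in all 22 alternative analyses. Against control, Ciita had a log2 fold change of 0.26 in ECM (adjusted p = 0.734) and of 2.66 in treated ECM (adjusted p = 0.000606). H2-Eb1, the beta chain of a class II molecule, was at 8.21, 9.05, 4.82 and 7.01 CPM in ECM and 9.77, 23.9, 14.2 and 20.8 CPM in treated ECM. Treated 1 was only just above the highest untreated library (log2 fold change 1.24 ± 0.31, adjusted p = 0.0301), and the call was lost without ECM 2 and ECM 3 together, treated 2, 3 or 4 or ECM 1 or 3. Cd74, the class II chaperone, had 54.6, 68.8, 43.9 and 42.7 CPM in ECM and 44.2, 126, 82.2 and 118 CPM after treatment. Treated 1 lay within the untreated range and the other treated libraries above it, and the difference did not pass (log2 fold change 0.82 ± 0.32, adjusted p = 0.131).

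Markers of T and NK cells had the lowest median of the lists with at least 5 tested genes, -1.90. Of 23 tested members 16 were called lower, against 5.16% of all tested genes, and 7 were not. The summed level of the list was 485 to 646 CPM in control, 797 to 995 CPM in ECM and 592 to 721 CPM in treated ECM. Most of the sum was Thy1, which neurons also express, with group means of 564 CPM in control, 628 CPM in ECM and 582 CPM in treated ECM. In bulk tissue, fewer cells of a type and less RNA per cell cannot be told apart. Gzmb encodes granzyme B, the protease that cytotoxic cells deliver into targets. Its level was 46.5, 101, 64.8 and 74.6 CPM in ECM and 8.4, 9.05, 15.6 and 22.4 CPM in treated ECM, against 0–0.0763 CPM in control. No libraries overlapped (log2 fold change -2.37 ± 0.34, adjusted p = 0.0016). Cd8a, the CD8 coreceptor, fell from 8.84, 13.9, 8.47 and 10.8 CPM to 2.25, 0.835, 2.45 and 4.43 CPM (log2 fold change -2.07 ± 0.46, adjusted p = 0.0156), with no overlap, but this call was lost without ECM 2 and ECM 3 together or treated 1 or 3. Cd2, an adhesion receptor of T and NK cells, had 2.68, 3.18, 4.24 and 4.01 CPM in ECM and 0.275, 0.557, 0.531 and 0.596 CPM in treated ECM (log2 fold change -2.84 ± 0.38, adjusted p = 0.00118). The groups were well apart. Cd3g, a chain of the T cell receptor complex, was at 3.0–4.82 CPM in ECM and 0.209–1.13 CPM in treated ECM (log2 fold change -2.95 ± 0.52, adjusted p = 0.00855), with the call lost without ECM 2 and ECM 3. Gzmk fell as well (log2 fold change -2.77 ± 0.67, adjusted p = 0.0244), a call lost without ECM 2 and ECM 3 together, treated 1, 2 or 3 or ECM 2. Perforin (Prf1), which opens the pores for granzymes, had non-overlapping groups of 2.37, 2.36, 4.32 and 4.06 CPM and 0.769, 1.67, 1.33 and 2.05 CPM and did not pass (log2 fold change -1.18 ± 0.45, adjusted p = 0.115). Among the genes with the largest falls were the T and NK cell receptors Tigit (log2 fold change -4.2 ± 0.60, adjusted p = 0.0016), Icos (log2 fold change -4.15 ± 0.75, adjusted p = 0.0053) and Klrc1 (log2 fold change -3.99 ± 0.64, adjusted p = 0.00543). Against control, 14 of the 23 members were called higher in treated ECM, beside 1.98% of all tested genes. After omission of ECM 2 and ECM 3, 7 members were called lower and the median was -1.78. With single libraries left out the count was 7 without treated 1, 8 without treated 2 and 8 without treated 3. Of 8 B cell markers 1 could be tested, and it did not pass.

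Monocyte and macrophage genes also fell, with 13 of 17 tested members called lower, against 5.16% of all tested genes, and a median of -1.59. Chil3 (Ym1) was the lowest member. It was at 36.4, 108, 50.3 and 67.4 CPM in ECM and at 0.878, 1.46, 2.98 and 2.05 CPM after treatment. Every untreated library was far above every treated one (log2 fold change -5.15 ± 0.43, adjusted p = 0.000174). Ly6c2, the surface marker of inflammatory monocytes, stood at 17.7, 50.6, 27.4 and 23 CPM in ECM and at 4.45, 5.85, 5.44 and 7.21 CPM in treated ECM, again without overlap (log2 fold change -2.37 ± 0.33, adjusted p = 0.00135), and at 0–0.065 CPM in control. Fcgr4, an activating receptor for antibody complexes, fell (log2 fold change -2.85 ± 0.41, adjusted p = 0.0016), as did Ms4a6c, a membrane protein of myeloid cells (log2 fold change -2.75 ± 0.33, adjusted p = 0.000651). Ctse, an aspartic protease of immune cells (log2 fold change -4.16 ± 0.60, adjusted p = 0.00354), and Ms4a8a (log2 fold change -3.76 ± 0.61, adjusted p = 0.00326) were among the largest falls over all genes. Dpep2, a dipeptidase that cleaves leukotriene D4, had 87 reads over the 4 untreated libraries and 3 over the treated ones, a ratio of 32.6-fold (95% counting interval 10.8 to 161.0). That interval covers the counting of pooled reads only and leaves out the spread between libraries. Its call, which does use that spread, was kept in all 22 alternatives (largest adjusted p = 0.0137). Without ECM 2 and ECM 3, 8 monocyte and macrophage members were called lower, and the count was 8 without treated 1, 8 without treated 3 and 7 without treated 4.

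Neutrophil genes were scarce, with 6 of 11 tested and 1 called, Mmp8, the neutrophil collagenase, which was at 1.26, 3.51, 4.49 and 3.16 CPM in ECM and 0.11, 0.0696, 0.133 and 0.529 CPM in treated ECM (log2 fold change -3.84 ± 0.72, adjusted p = 0.00667). S100a8, an abundant calcium-binding protein of neutrophils and monocytes, had 1.1, 1.96, 1.66 and 2.46 CPM in ECM and 1.1, 0.835, 0.995 and 1.32 CPM after treatment. The groups overlapped and did not differ beyond their spread (log2 fold change -0.76 ± 0.41, adjusted p = 0.262). Ly6g, the defining neutrophil surface marker, was at 0 in all 8 libraries. So were Trem2, Pdpn, Egr2 and Kif11, which belong to the microglial, endothelial, immediate early and cell cycle lists. Whether the 0 of Ly6g came from how reads were counted was not tested. The summed level of the list ran from 39.9 to 114.0 CPM in ECM and from 23.6 to 88.3 CPM in treated ECM. A large part of that sum was Lcn2, which is also a reactive astrocyte gene and whose levels are given with those genes below.

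Of 15 tested chemokines, 5 were lower (Cxcl16, Ccl2, Ccl3, Ccl5 and Ccl7), against 5.16% of all tested genes, and the list median was -0.84. Only 1, Cxcl12, was higher, where 3.15% of all tested genes were. Ccl2, which recruits monocytes through CCR2, was at 10.3, 19.1, 8.64 and 13.3 CPM in ECM and 0.604, 1.25, 1.53 and 2.18 CPM in treated ECM. The groups were separated by a wide gap (log2 fold change -3.21 ± 0.44, adjusted p = 0.00135). Ccl7, a second CCR2 ligand, fell from 2.76–6.36 CPM to 0.278–1.65 CPM (log2 fold change -2.26 ± 0.44, adjusted p = 0.00855), a call lost without ECM 2 and ECM 3 together (adjusted p = 0.0604). Cxcl9 and Cxcl10, interferon-gamma-inducible ligands of CXCR3 on T cells, did not pass. Cxcl10 had 71.3, 237, 85.3 and 79.8 CPM in ECM and 37.4, 80.8, 87.9 and 78.5 CPM after treatment (log2 fold change -0.73 ± 0.45, adjusted p = 0.317). Cxcl9 had 20.4, 39.4, 24.2 and 14.4 CPM and 7.91, 25.8, 34 and 34.7 CPM (log2 fold change 0.06 ± 0.42, adjusted p = 0.945). The groups of both genes overlapped, and their control libraries were below 1 CPM. Ccl5, which attracts T cells and monocytes, was called (log2 fold change -1.89 ± 0.49, adjusted p = 0.0332) although treated 4 at 12.9 CPM exceeded ECM 3 at 8.14 CPM, and its call was lost without treated 1, 2 or 3, control 3, ECM 1 or 2 or all 4 controls. Ccl3 fell (log2 fold change -2.61 ± 0.60, adjusted p = 0.0198), a call lost without ECM 2 and ECM 3 together or treated 1, 2 or 3. With ECM 2 and ECM 3 left out, 2 chemokines were called lower and Cxcl12 was not called. With single libraries left out it was 2 without treated 1, 2 or 3 and 3 without control 3 or ECM 2, and a second gene was called higher without ECM 4.

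Among 12 tested cytokines 1 fell and 1 rose, where 5.16% of all tested genes fell and 3.15% rose. Lif, a cytokine of the interleukin-6 family, was at 2.92, 1.47, 1.66 and 5.24 CPM in ECM and 0.604, 0.487, 0.398 and 0.331 CPM after treatment, and the treated values lay at the level of the controls (0.325–0.931 CPM). No treated library reached any untreated one (log2 fold change -2.62 ± 0.47, adjusted p = 0.00566). Tnfsf10 encodes TRAIL, a death ligand of the tumour necrosis factor family and itself inducible by interferons. It was at 10.4, 12.7, 19.1 and 9.09 CPM in ECM and at 36.6, 36.4, 39.1 and 34 CPM in treated ECM. All treated libraries were above all untreated ones (log2 fold change 1.51 ± 0.22, adjusted p = 0.0016) and controls were at 3.83–5.03 CPM, so Tnfsf10 was higher in ECM than in control (1.58, adjusted p = 0.000328) and higher again after treatment (3.09 against control, adjusted p = 3.87e-06). Tnf had 0.631, 2.04, 1.41 and 1.93 CPM in ECM and 0.165, 0.0696, 0.995 and 0.596 CPM in treated ECM, with overlap (log2 fold change -1.72 ± 0.67, adjusted p = 0.135). The number of lower cytokines was 2 without treated 3, ECM 1 or control 4.

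Genes of the microglial response pointed in both directions. In the list of activated microglia 9 of 19 tested members fell (median -0.96), and in the list of homeostatic microglia 3 of 14 rose (median 0.40). Over all tested genes 5.16% fell and 3.15% rose. Cd86, the costimulatory ligand of CD28, was at 9.15, 16.9, 11.4 and 9.09 CPM in ECM and at 2.53, 2.58, 2.12 and 2.12 CPM after treatment. The treated values lay within the 2.16–3.44 CPM of the controls or at their lower edge, and the groups did not overlap (log2 fold change -2.31 ± 0.26, adjusted p = 0.000411). Lgals3bp, a secreted glycoprotein induced by interferons, fell from 154, 182, 129 and 167 CPM to 30.5, 47.7 and 39.6 CPM in treated 1 to 3 (log2 fold change -2.01 ± 0.19, adjusted p = 0.00021). Treated 4 was left out of this gene's fit because its value was damaged in the count table. Fcrls, a receptor restricted to microglia, rose from 10.3, 10.8, 4.07 and 10.6 CPM to 22.3, 30.3, 30.4 and 17.6 CPM (log2 fold change 1.49 ± 0.31, adjusted p = 0.0111), with controls at 14.7–27.9 CPM. Slc2a5, the microglial fructose transporter, rose too (log2 fold change 1.32 ± 0.24, adjusted p = 0.00576), and so did Olfml3 (log2 fold change 0.83 ± 0.19, adjusted p = 0.0185), the latter call being lost without ECM 2 and ECM 3 together or treated 2. The best known homeostatic markers did not pass: Tmem119 had overlapping groups (log2 fold change 0.66 ± 0.41, adjusted p = 0.321), as did P2ry12 (log2 fold change 0.14 ± 0.35, adjusted p = 0.836). Lgals3 fell (log2 fold change -2.33 ± 0.51, adjusted p = 0.0141), with the call lost without ECM 2 and ECM 3 together or treated 1 or 3. After omission of ECM 2 and ECM 3, 4 activated genes were called lower and 3 homeostatic genes higher, and the activated count was 5 without treated 1 or treated 3.

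Genes of innate sensing and NF-kB signalling fell in part, with 8 of 19 tested members called lower (5.16% over all tested genes) and a median of -0.70. The 8 were 5 receptors (Tlr2, Tlr3, Tlr6, Tlr7 and Tlr13) and 3 feedback regulators of NF-kB (Nfkbia, Nfkbiz and Tnfaip3). Tlr13, a receptor for bacterial ribosomal RNA found in mice, was at 15.3, 19.2, 22.5 and 13.7 CPM in ECM and 2.75, 4.18, 2.26 and 3.04 CPM in treated ECM, with controls at 3.33–6.8 CPM. The treated libraries were below all untreated ones and within or under the control range (log2 fold change -2.53 ± 0.28, adjusted p = 0.000411). Tlr7, a receptor for single-stranded RNA, fell in the same way (log2 fold change -2.09 ± 0.37, adjusted p = 0.00517). Of the other called members Tlr6 (log2 fold change -1.71 ± 0.46, adjusted p = 0.0371) lost its call without ECM 2 and ECM 3 together, treated 1, 2, 3 or 4, control 1, ECM 1, 2 or 3 or ECM 2, ECM 3 and control 4 together and also with the cerebellum score as covariate. The list had 4 calls without ECM 2 and ECM 3, 4 without treated 1, 2 or 3, and 5 without treated 4, control 1 or ECM 2. Inflammasome and cell death genes had a median of -0.95 over 17 tested members but only 2 calls, Mlkl, the executor of necroptosis (log2 fold change -1.46 ± 0.34, adjusted p = 0.0209, lost without ECM 2 and ECM 3 together, treated 1 or 2 or ECM 2, ECM 3 and control 4 together), and Pmaip1 (log2 fold change -1.55 ± 0.33, adjusted p = 0.0123). Neither was called without ECM 2 and ECM 3, when none of the list was, and the count was 1 without treated 1 or 2, 8 without control 4, 4 without ECM 2 and 5 without ECM 4.

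Astrocytes are marked in disease by a set of reactive genes. Of these 13 of 29 fell, against 5.16% of all tested genes, and 16 did not pass, with a median of -1.11. The count was 12 without ECM 2 and ECM 3 and between 10 and 17 with single libraries left out, and the median moved no further than from -0.98 to -1.19. Gfap, the intermediate filament of reactive astrocytes, was at 1127, 835, 895 and 984 CPM in ECM and 259, 321, 439 and 553 CPM after treatment. The highest treated library stayed below the lowest untreated one (log2 fold change -1.29 ± 0.23, adjusted p = 0.00529), and controls were at 177–288 CPM. Serpina3n, a secreted protease inhibitor, fell from 156, 178, 117 and 119 CPM to 18.6, 19 and 32.2 CPM in treated 1 to 3, with treated 4 again left out for the same reason (log2 fold change -2.61 ± 0.25, adjusted p = 0.000205). Its controls lay at 16–19 CPM. Emp1, a tetraspan membrane protein of the list, went from 41.5, 64.7, 39.2 and 34.5 CPM to 3.02, 6.75, 7.23 and 8.01 CPM (log2 fold change -2.85 ± 0.33, adjusted p = 0.000471), again without overlap. Tgm1, a transglutaminase, fell from 1.23–3.31 CPM to 0–0.463 CPM (log2 fold change -3.1 ± 0.63, adjusted p = 0.0106). Lcn2, which encodes the iron-carrier-binding protein lipocalin-2, is a reactive astrocyte gene that did not pass: it was at 27.2, 97.4, 48.7 and 30.5 CPM in ECM and 15.3, 35.1, 78.7 and 55.8 CPM in treated ECM. The groups overlapped (log2 fold change -0.14 ± 0.47, adjusted p = 0.877), and all 8 libraries were far above the 0.166–0.573 CPM of the controls. Vim, another filament gene, did not pass either (log2 fold change -0.98 ± 0.34, adjusted p = 0.095). Of 14 homeostatic astrocyte genes 2 fell, Gjb6 (log2 fold change -0.9 ± 0.21, adjusted p = 0.0213) and Aldh1l1 (log2 fold change -0.7 ± 0.19, adjusted p = 0.0409), and their calls were lost without ECM 2 and ECM 3 together or treated 1, 2 or 4 for the first and without treated 1, 2, 3 or 4, control 1, 2 or 3 or ECM 1 or 4 for the second.

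Complement genes fell in 4 of 14 tested members, C1qb, C4b, Serping1 and C3ar1, against 5.16% of all tested genes. The list median was -0.85, and there were 4 calls without ECM 2 and ECM 3 as well. C4b, a component of the classical pathway made by astrocytes and other brain cells, was at 259, 134, 145 and 293 CPM in ECM and 30.5, 53.8, 55.8 and 67.1 CPM in treated ECM. The 2 ranges were well separated (log2 fold change -2.0 ± 0.32, adjusted p = 0.00288). Serping1, the inhibitor of the C1 complex, had 41, 87.4, 40.0 and 36.1 CPM in ECM and 12, 15.7 and 19 CPM in treated 1 to 3 (log2 fold change -1.71 ± 0.33, adjusted p = 0.00882), without the damaged value of treated 4. C3ar1, the receptor for the C3a fragment, fell (log2 fold change -1.68 ± 0.29, adjusted p = 0.00432).

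Endothelial genes moved in both directions. In the list of endothelial activation, adhesion and coagulation genes 5 of 20 tested members fell, with a median of -0.40, among them Plat, Plaur, Procr and Thbs1. Over all tested genes 5.16% fell. Procr, the receptor for protein C, was at 6.39, 10.8, 6.48 and 10.2 CPM in ECM and 2.14, 1.81, 0.73 and 2.18 CPM after treatment, with a clear gap (log2 fold change -2.3 ± 0.36, adjusted p = 0.00275). Thbs1, an inhibitor of vessel growth that also acts in platelets, fell from 15.5–23.8 CPM to 3.9–6.43 CPM (log2 fold change -1.99 ± 0.25, adjusted p = 0.000773), against 3.01–5.52 CPM in control. Plaur, the urokinase receptor, fell (log2 fold change -1.65 ± 0.45, adjusted p = 0.0387), but lost its call without ECM 2 and ECM 3 together, treated 2, 3 or 4, control 1 or 2 or ECM 1 or 2. The adhesion receptors that bind leukocytes did not pass. Icam1 had 21.9, 41.2, 23.9 and 44.3 CPM in ECM and 16.8, 23.3, 23.3 and 20.2 CPM in treated ECM (log2 fold change -0.65 ± 0.25, adjusted p = 0.116). Vcam1 had 39.8, 75.7, 55.2 and 50.6 CPM and 77.7, 91.2, 86.2 and 77.6 CPM, so every treated library was above every untreated one, but the difference did not pass (log2 fold change 0.59 ± 0.19, adjusted p = 0.0724). Selp, encoding P-selectin, had overlapping groups (log2 fold change 0.48 ± 0.43, adjusted p = 0.506). Levels of these 3 genes in treated ECM were higher than in control, with log2 fold changes of 3.38 (adjusted p = 1.20e-05) for Icam1, 1.35 (adjusted p = 0.00137) for Vcam1 and 4.74 (adjusted p = 0.000293) for Selp. The number of lower genes was 3 without ECM 2 and ECM 3 and 3 without treated 3, treated 4, control 1, control 2, ECM 1 or ECM 2. It was 8 by DESeq2 and with GC-content offsets, and 1 member was called higher without ECM 2 and ECM 3, without ECM 2 or control 4 alone and by DESeq2, and 2 with GC-content offsets.

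Genes of endothelial identity and the blood-brain barrier rose in 2 and fell in 5 of 20 members, with a median of -0.07. Over all tested genes 3.15% were called higher and 5.16% lower. Slco1c1 encodes OATP1C1, the thyroxine transporter of the barrier. Its level was 18.8, 19.2, 22.6 and 21 CPM in ECM 1 to 4 and 67.6, 65, 47.5 and 59.5 CPM in treated 1 to 4, and the control libraries were at 53, 51, 57.1 and 62.6 CPM. The treated libraries were all above the untreated ones and overlapped the controls (log2 fold change 1.55 ± 0.15, adjusted p = 0.000205). Slc22a8 encodes OAT3, an organic anion transporter of the barrier and the choroid plexus. It was at 3.0, 4.16, 3.49 and 3.53 CPM in ECM and 15.3, 11.7, 21.6 and 12.3 CPM in treated ECM, also without overlap (log2 fold change 2.1 ± 0.23, adjusted p = 0.000302), with 15.2–20.4 CPM in control. Both calls were kept in all 22 alternatives. The 5 that fell were Cdh5, Pecam1, Erg, Slc2a1 and Mfsd2a. Pecam1, the junctional adhesion molecule CD31, went from 82.1, 90.7, 115 and 71.4 CPM to 27.8, 42, 29.1 and 43.2 CPM (log2 fold change -1.34 ± 0.24, adjusted p = 0.00488), which reached the control range. The tight-junction gene Cldn5 varied widely between libraries and did not pass (log2 fold change -0.84 ± 0.40, adjusted p = 0.205). Without ECM 2 and ECM 3, 2 members were higher and 4 lower, and 2 to 3 were lower without treated 1, 2 or 3, control 1, control 3 or ECM 1. Of 12 pericyte and mural genes 1 fell, Kcnj8 (log2 fold change -0.84 ± 0.23, adjusted p = 0.039), a call lost without ECM 2 and ECM 3 together, treated 1, 2, 3 or 4, control 1 or 3, ECM 2 or 3, ECM 2, ECM 3 and control 4 together, all 4 controls or a filter on low counts.

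The 4 called genes among 29 of the oligodendrocyte lineage were higher, where 3.15% of all tested genes were. By DESeq2, with the cerebellar covariate and without control 4 alone 1 precursor gene was called lower, and without ECM 2, ECM 3 and control 4 together 1 gene of each list was lower. Gpr17 marks precursors that have committed to become oligodendrocytes. It was at 11.6, 3.18, 16.7 and 16.8 CPM in ECM and 44.4, 63.6, 66.5 and 62.3 CPM after treatment, with controls at 46.2, 60.2, 41.4 and 47.3 CPM. The treated and control libraries covered a similar range, and every untreated library was below both (log2 fold change 2.29 ± 0.37, adjusted p = 0.00349). Ugt8a makes the galactolipids of myelin. It rose from 40.1, 30.7, 41 and 29.1 CPM to 84.1, 89.1, 84.9 and 118 CPM (log2 fold change 1.42 ± 0.19, adjusted p = 0.00112). Both calls were kept in all 22 alternatives. Bmp4 (log2 fold change 1.09 ± 0.26, adjusted p = 0.0233) and Fa2h, a lipid hydroxylase of myelin (log2 fold change 0.96 ± 0.25, adjusted p = 0.0352), rose as well, with calls lost without ECM 2 and ECM 3 together, treated 1, 2 or 3 or ECM 3 for the first and without ECM 2 and ECM 3 together, treated 1, 2, 3 or 4, control 3 or ECM 1, 2 or 3 and also with the cerebellum score as covariate for the second. That made 2 of 13 precursor genes (median 0.60) and 2 of 16 myelinating genes (median 0.21). Mbp, the major structural protein of myelin, had 4015, 3573, 2949 and 4474 CPM in ECM and 4167, 4353, 4433 and 6328 CPM in treated ECM, with overlap, and did not pass (log2 fold change 0.36 ± 0.26, adjusted p = 0.39). With ECM 2 and ECM 3 left out, 1 gene of each list was called, and 4 precursor genes were called without control 4 or without ECM 4.

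No gene of the 24 on the neuronal list was called in the main edgeR fit. At an unadjusted p below 0.05, 2 were higher and 2 lower, and DESeq2 called 1. With a single library left out edgeR called at most 1 higher and at most 2 lower. Without ECM 2, ECM 3 and control 4 together it called 1 lower. Of 10 striatal genes 3 were called higher (3.15% over all tested genes), all 10 had a fold change above 0, and the median was 0.73. Drd2, the dopamine D2 receptor of the indirect pathway, was at 17, 13.5, 9.22 and 11.7 CPM in ECM and 36.4, 37.5, 33.2 and 28.1 CPM in treated ECM, and the controls lay at 27.6, 41.1, 43.1 and 36.4 CPM. Treated and untreated libraries did not overlap (log2 fold change 1.39 ± 0.21, adjusted p = 0.00194), and the call held in all 22 alternatives. Pde10a, the phosphodiesterase of striatal neurons, rose from 98.7–141 CPM to 219.9–263 CPM (log2 fold change 0.96 ± 0.18, adjusted p = 0.00674). Adora2a, an adenosine receptor of the same neurons, rose (log2 fold change 1.78 ± 0.51, adjusted p = 0.0487), with its call lost without ECM 2 and ECM 3 together, treated 1, 2, 3 or 4, control 1, 2 or 3 or ECM 1 or 2. Ankk1, a kinase gene that neighbours Drd2, was among the largest rises (log2 fold change 3.15 ± 0.57, adjusted p = 0.00566). The cerebellar marker level differed between libraries as given above, and the part played by the region sampled was not tested. After omission of ECM 2 and ECM 3, 6 striatal genes were called, and 6 were called without ECM 2 alone. None of 13 cerebellar genes was called by edgeR or DESeq2, and none had an unadjusted p below 0.05, with fold changes from -0.58 to 1.03.

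Choroid plexus genes had a median of 1.14 but 1 call among 14, Sostdc1, an antagonist of BMP and Wnt signals (log2 fold change 1.94 ± 0.51, adjusted p = 0.0347), a call lost without ECM 2 and ECM 3 together, treated 1, 2, 3 or 4, control 1 or 3, ECM 1, 2 or 3, ECM 2, ECM 3 and control 4 together or all 4 controls. Over all tested genes 3.15% were called higher. The plexus transcript Ttr (transthyretin) lay at 2.33–367 CPM in ECM and at 60.6–835 CPM in treated ECM. Libraries of 1 group lay far apart: ECM 4 held 367 CPM and ECM 1, 2 and 3 at most 7.09 CPM (log2 fold change 1.86 ± 1.38, adjusted p = 0.414).

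**Figure D3:**
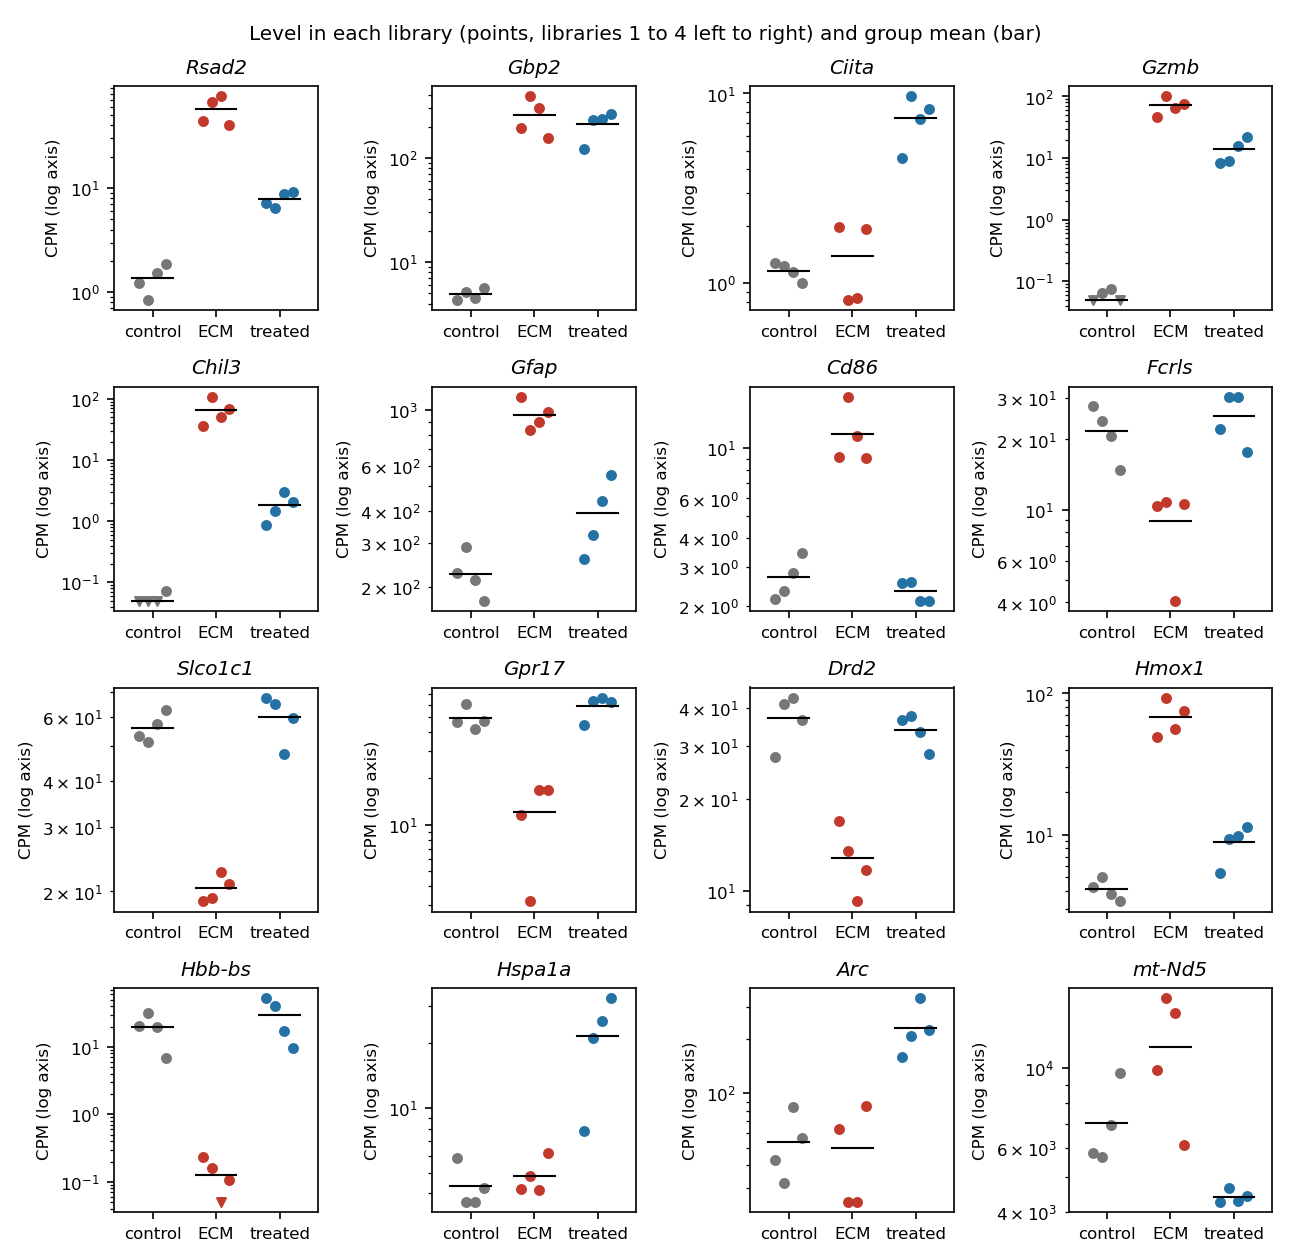
CPM on a log axis of 16 genes in control, ECM and treated ECM. Each point is a library, libraries 1 to 4 from left to right within a group, the bar is the group mean, and a triangle is a library at 0 drawn at 0.05 CPM. Rsad2, Gzmb and Chil3 fall but stay above control, Gbp2 stays high, Ciita, Hspa1a and Arc rise above both other groups, and Slco1c1, Gpr17, Drd2 and Hbb-bs lie near control after treatment.

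Genes of heme, iron and oxidative stress fell in 7 of 21 tested members, against 5.16% of all tested genes, with a median of -0.57. Hmox1, heme oxygenase-1, breaks down free heme, which is released when parasites destroy red cells. It was at 49.2, 93.4, 55.9 and 75.3 CPM in ECM and 5.38, 9.33, 9.75 and 11.3 CPM after treatment, and at 3.36–5.0 CPM in control. The gap between treated and untreated libraries was wide (log2 fold change -2.94 ± 0.27, adjusted p = 0.000205). Mt1, a metallothionein that binds zinc and copper, went from 1092, 2488, 857 and 870.0 CPM to 359, 361, 449.8 and 549 CPM (log2 fold change -1.63 ± 0.31, adjusted p = 0.00735). The treated values came close to the 302–395 CPM of the controls. Hp, encoding haptoglobin, which binds free haemoglobin, fell from 7.02–12.1 CPM to 1.43–3.98 CPM (log2 fold change -1.64 ± 0.44, adjusted p = 0.0371), with a call lost without ECM 2 and ECM 3 together, treated 1, 2, 3 or 4 or ECM 2, 3 or 4. Mt2 (log2 fold change -1.72 ± 0.49, adjusted p = 0.0453) overlapped between the groups, and its call was lost without ECM 2 and ECM 3 together, treated 1, 2, 3 or 4, control 1, 2 or 3, ECM 1 or 2 or all 4 controls. Without ECM 2 and ECM 3, 5 members were called lower.

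Haemoglobin transcripts rose from near 0. Hbb-bs, an adult beta-globin, was at 0.237, 0.163, 0 and 0.107 CPM in ECM, 52.2, 40.5, 17.1 and 9.53 CPM in treated ECM and 20.3, 31.6, 19.4 and 6.94 CPM in control. The untreated libraries were near 0 and every treated one exceeded them by far (log2 fold change 7.8 ± 0.81, adjusted p = 0.000218). Hba-a1, an alpha-globin, showed the same order, with 0.158, 0.0815, 0 and 0.16 CPM in ECM, 26.1, 16.2, 7.89 and 2.78 CPM in treated ECM and 8.43, 11.4, 7.4 and 3.58 CPM in control (log2 fold change 6.85 ± 0.83, adjusted p = 0.000651). Hbb-bt had 0 reads in the 4 untreated libraries and 220 in the treated ones, at least 65.2-fold higher against a floor of 3 reads over the group. The list of 5 tested erythroid genes had a median of 6.85, or 6.03 with Hbb-bt at that bound, and 3 calls, also without ECM 2 and ECM 3. Globin genes have near-identical copies that can share reads. Within the treated group the levels differed by several-fold, with treated 1 and 2 above treated 3 and 4.

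Targets of the stress hormone receptor fell in part. Of 17 glucocorticoid-responsive genes 9 were lower, against 5.16% of all tested genes, with a median of -0.85. Several of the 9, Nfkbia, Mt1, Mt2 and Angptl4 among them, are also counted as lower in other lists. Cdkn1a, the cell cycle inhibitor p21, fell from 127, 162, 80.5 and 135 CPM to 28.8, 27.4, 25.1 and 35 CPM without overlap (log2 fold change -2.12 ± 0.21, adjusted p = 0.000205). Sult1a1, a sulfotransferase, fell from 45.5–84.8 CPM to 8.7–16.8 CPM (log2 fold change -2.41 ± 0.35, adjusted p = 0.00163). There were 8 calls without ECM 2 and ECM 3, 4 without treated 1 or treated 2 and 5 without treated 3 or treated 4. In the hypoxia list 5 of 17 genes fell with a median of -0.14, among them the vasodilator peptide gene Adm (log2 fold change -1.68 ± 0.30, adjusted p = 0.00506) and the lipase inhibitor Angptl4 (log2 fold change -1.53 ± 0.30, adjusted p = 0.00835). Those 5 became 3 without ECM 2 and ECM 3, 2 without any 1 of the treated libraries and 3 without ECM 1. Dbp, an output gene of the circadian clock, rose (log2 fold change 1.96 ± 0.55, adjusted p = 0.0448) and Bhlhe40, a clock repressor, fell (log2 fold change -0.62 ± 0.15, adjusted p = 0.0249), the first call being lost without ECM 2 and ECM 3 together, treated 1, 2, 3 or 4, control 1, 2 or 3 or ECM 1, 2 or 3 and also with the cerebellum score as covariate and the second without treated 1, 2 or 4.

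Protein-folding genes rose in part, where 3.15% of all tested genes were called higher. Of 26 genes of the heat shock and unfolded protein response 7 were higher, with a median of 0.44: Hspa1a, Hspa1b, Dnajb1, Pdia6, Sdf2l1, Creld2 and Calr. Hspa1a, an inducible Hsp70 chaperone, was at 4.18, 4.81, 4.15 and 6.15 CPM in ECM, 7.8, 21.2, 25.5 and 32.4 CPM in treated ECM and 5.88, 3.64, 3.66 and 4.22 CPM in control. Treated 1 was only slightly above the untreated libraries and treated 2, 3 and 4 were several-fold higher (log2 fold change 2.16 ± 0.36, adjusted p = 0.00369). Sdf2l1, a chaperone cofactor of the endoplasmic reticulum, had 4.97, 5.46, 4.98 and 7.86 CPM in ECM and 10.4, 19.7, 18.5 and 24.4 CPM in treated ECM (log2 fold change 1.64 ± 0.34, adjusted p = 0.011). Hspa5, the main chaperone there, did not pass (log2 fold change 0.52 ± 0.19, adjusted p = 0.105). Against control, 6 members of the list were called higher in treated ECM, where 1.98% of all tested genes were. In untreated ECM 1 member was called higher, where 7.1% of all tested genes were. Hspa1a and Hspa1b are near-identical copies and can share reads. The count fell to 2 without ECM 2 and ECM 3, when Hspa1b (adjusted p = 0.0932) and Sdf2l1 (adjusted p = 0.104) lost their calls.

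Immediate early genes, which neurons switch on within minutes of activity, gave 2 rises and 1 fall among 19. The single fall is close to the 5.16% called lower over all tested genes, and 3.15% were called higher. Arc, a synaptic regulator, was at 63.8, 25, 25 and 85.1 CPM in ECM, 159, 206, 334 and 223 CPM in treated ECM and 42.5, 31.8, 83.6 and 56.3 CPM in control. The lowest treated library was above every other library of the study (log2 fold change 2.21 ± 0.42, adjusted p = 0.00758). Cyr61, a matrix-associated growth signal, fell from 61.6–90.5 CPM to 7.52–18.7 CPM (log2 fold change -2.37 ± 0.27, adjusted p = 0.000411). Nr4a2 was called (log2 fold change 0.81 ± 0.22, adjusted p = 0.0405), though treated 1 lay inside the untreated range and the call was lost without ECM 2 and ECM 3 together, treated 2, 3 or 4, control 1, 2 or 3, ECM 1, 2 or 3, ECM 2, ECM 3 and control 4 together or all 4 controls. Fos had overlapping groups (log2 fold change -0.3 ± 0.52, adjusted p = 0.742). With ECM 2 and ECM 3 left out, 1 gene was higher and 2 were lower, and 6 were higher without ECM 4.

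Transcripts of the mitochondrial genome fell in 6 of 12 tested genes, against 5.16% of all tested genes, with a median of -1.32. These are the genes whose share of reads set ECM 2 and ECM 3 apart. The mRNA of subunit 5 of complex I, mt-Nd5, was at 9899, 15599.5, 14257 and 6124 CPM in ECM and 4245, 4652, 4288 and 4413 CPM after treatment. ECM 4 was the nearest to the treated libraries and ECM 2 and ECM 3 the farthest (log2 fold change -1.38 ± 0.26, adjusted p = 0.00714). The call was lost without ECM 2 and ECM 3 together (adjusted p = 0.0578). After omission of ECM 2 and ECM 3, 1 member was called and the median was -0.45, and there were 2 calls without any 1 of the treated libraries, 3 without control 2, control 3, ECM 2 or ECM 3, 10 without control 4 and 12 without ECM 4. The nuclear genes of the same respiratory complexes gave no call among 28 in the main edgeR fit or by DESeq2. Their median was 0.05, with 3 higher and 1 lower at an unadjusted p below 0.05. Without ECM 2, ECM 3 and control 4 together edgeR called 3 higher. With GC-content offsets it called 1 higher, and with a single library left out at most 1 higher.

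Cell cycle genes fell in 3 of 29 tested members with a median of -0.63, Mki67 (log2 fold change -1.44 ± 0.37, adjusted p = 0.0325), Ccnb2 (log2 fold change -1.51 ± 0.32, adjusted p = 0.0122) and Birc5 (log2 fold change -1.62 ± 0.45, adjusted p = 0.0412). Mki67, the nuclear marker of proliferating cells, was at 12.7, 10.1, 25.7 and 13.5 CPM in ECM and 4.83, 4.87, 7.43 and 5.63 CPM after treatment, without overlap, and its call was lost without ECM 2 and ECM 3 together, treated 1, 2, 3 or 4 or ECM 3. That of Birc5 was lost without ECM 2 and ECM 3 together, treated 1, 2, 3 or 4, control 1 or 3, ECM 2 or 3 or ECM 2, ECM 3 and control 4 together, and that of Ccnb2 without treated 1. The list had 1 call without ECM 2 and ECM 3, 0 to 1 without any 1 treated library, 1 without ECM 3 and 5 without control 4. Its 3 calls among 29 stand beside 5.16% called lower over all tested genes. Matrix genes gave 4 falls and 1 rise among 25, the falls including the protease gene Adamts1 (log2 fold change -1.46 ± 0.26, adjusted p = 0.00479) and the basement membrane collagen Col4a1 (log2 fold change -1.18 ± 0.26, adjusted p = 0.0154) and the rise being Col1a1 (log2 fold change 1.0 ± 0.23, adjusted p = 0.0175). The call of Col1a1 was lost without ECM 2 and ECM 3 together or treated 3 or 4 and that of Col4a1 without treated 1. There were 3 falls without ECM 2 and ECM 3, 1 without treated 1 and 2 without treated 2 or treated 4. Over all tested genes 5.16% were called lower and 3.15% higher, and the single matrix rise is close to the latter share. Cholesterol synthesis gave no call among 20 genes by edgeR, with 1 higher and 4 lower at an unadjusted p below 0.05 and 3 called lower by DESeq2. Without ECM 4 alone edgeR called 5 lower, without control 4 alone 1 higher and 1 lower. The kynurenine pathway gave none among 7, with 2 lower at an unadjusted p below 0.05 and 1 by DESeq2. With a single library left out edgeR called at most 1 of its genes, as lower. Of 32 ribosomal protein genes 1, Rpl35, was called lower (log2 fold change -0.75 ± 0.21, adjusted p = 0.0469), a share below the 5.16% of all tested genes, and this call was lost without ECM 2 and ECM 3 together, treated 1, 2, 3 or 4, control 1, 2 or 3, ECM 1, 2 or 3, ECM 2, ECM 3 and control 4 together, all 4 controls or a filter on low counts.

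Genes with the largest fold changes outside these lists included Slc10a6, a transporter of steroid sulfates, which gave the lowest fold change of all tested genes. It was at 6.16, 10.4, 7.73 and 6.74 CPM in ECM and 0.11, 0.209, 0 and 0.199 CPM in treated ECM, the level of the controls (0–0.143 CPM). Every untreated library was at least an order of magnitude above the treated ones (log2 fold change -5.83 ± 0.58, adjusted p = 0.000205). Il1r2 fell from 4.81, 10.8, 10.3 and 6.52 CPM to 0.11, 0.278, 0.332 and 1.06 CPM (log2 fold change -4.18 ± 0.51, adjusted p = 0.000651), and controls were at 0.286–0.455 CPM. Of the largest rises, Gkn3, a secreted protein of arterial endothelium in brain, had 0.0789, 0.326, 0.166 and 0 CPM in ECM, 1.76, 1.6, 0.597 and 0.927 CPM in treated ECM and 4.05, 5.52, 5.19 and 2.79 CPM in control. Its treated libraries lay between the other groups (log2 fold change 3.16 ± 0.64, adjusted p = 0.0105). Pth2r, a parathyroid hormone-family receptor, rose from 0.163–0.71 CPM to 1.76–2.78 CPM (log2 fold change 2.54 ± 0.39, adjusted p = 0.00243). Fzd10 (log2 fold change 2.5 ± 0.54, adjusted p = 0.0141), Lct (log2 fold change 3.08 ± 0.68, adjusted p = 0.0154), Fgf16 (log2 fold change 2.5 ± 0.71, adjusted p = 0.0461) and Tnfrsf25 (log2 fold change 3.68 ± 0.87, adjusted p = 0.0238, from treated 1 to 3 only) also rose. The call of Fzd10 was lost without ECM 2 and ECM 3, that of Lct without ECM 2 and ECM 3 together, treated 3 or ECM 2, ECM 3 and control 4 together, that of Fgf16 without ECM 2 and ECM 3 together, treated 1, 2, 3 or 4, control 1 or 3, ECM 1, 2 or 3 or ECM 2, ECM 3 and control 4 together, and that of Tnfrsf25 without ECM 2 and ECM 3 together, treated 2 or 3, ECM 2 or ECM 2, ECM 3 and control 4 together.

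Libraries of the treated group were not alike. A score for each list and library, the median over its members of log2(CPM + 0.5) minus the ECM mean, put treated 1 nearest to the control mean in 22 of 40 lists, treated 2 in 7, treated 3 in 6 and treated 4 in 5. For interferon-stimulated genes the treated scores were -1.89, -1.57, -1.29 and -1.11, against -3.44 to -3.18 in control. For MHC class II they were -0.22, 1.28, 0.67 and 1.11, and for the heat shock list 0.04, 0.365, 0.57 and 0.81. Treated 1 was thus lowest in all 3 lists, including both in which members rose. Treated 1 was also the most deeply sequenced of the 4 treated libraries.

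**Figure D4:**
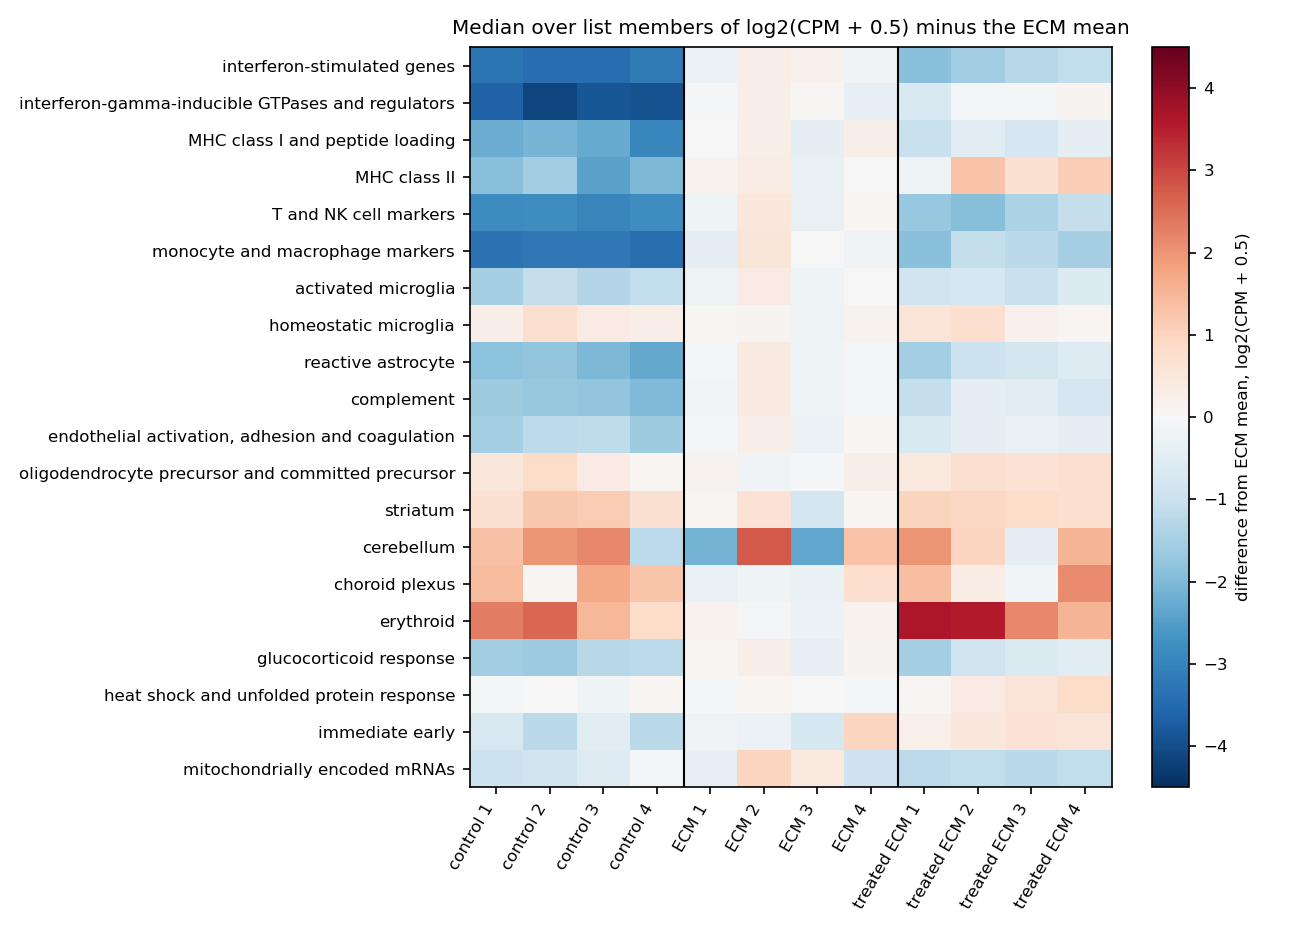
Score of 20 gene lists (rows) in each of the 12 libraries (columns): the median over members of log2(CPM + 0.5) minus the mean of the ECM libraries, with blue below and red above ECM, and black lines between the groups. In treated ECM the interferon-gamma row stays near the ECM level (-0.68 to 0.11) while the interferon-stimulated row is lower (-1.89 to -1.11), and the cerebellum row varies within every group.

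The authors' deposited table for this comparison lists 422 genes as up and 939 as down, 1014 of the 1361 with an adjusted p below 0.05. Of the listed genes 1134 were among those tested here, all 1134 with the same direction, and 673 of them were called. In the other direction, 668 of the 678 genes called here with at least a 2-fold change are in that table. By its name the table lists genes at a 2-fold change and an unadjusted p below 0.05, while calls here used an adjusted p. It was made from the same libraries and read counts, so the overlap is not an independent check.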

How the data were processed

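RNA-seq reads from mouse brain were trimmed with Trimmomatic, checked with FastQC, aligned with STAR and counted with HTSeq on build mm10, per the submitters' processing notes. The notes state neither versions nor the annotation. The authors deposited raw read counts per gene for the 12 libraries. Their comparison tables, per the file headers, hold log2 fold changes, p-values, read counts per library, library-scaled signal and FPKM. The fold changes and p-values were used here, and the read counts to check damaged values of the main table.

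In the deposited count table, 2212 gene names of 8 or more characters ran over 2 cells, which displaced their values and damaged that of treated ECM 4. These values were put back, and the genes were fitted on 11 libraries, without treated ECM 4. In the authors' deposited tables, 98 of 131 such genes differed in treated ECM 4 and none differed in another library. A further 26 names that had become dates were left out.

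Counts were tested with edgeR 4.0.16 in R 4.3.3: TMM scaling, its filter on low counts, and the quasi-likelihood test on 3 group means over 12 libraries. P-values were Benjamini-Hochberg adjusted over 14599 genes, and the threshold was 0.05. Standard errors were derived from the fold change and the F statistic. CPM are read counts scaled by TMM-adjusted library size, and log2 values added 0.5. The script was tested on simulated data.

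The comparison, the 40 gene lists and the 43 panel genes were chosen with earlier results of these data known. Named genes are the panel, up to 3 called members per list with the largest fold change and a mean of at least 1 CPM, and the 10 largest non-overlapping calls per direction. Other names were chosen after their values were seen. The 22 alternatives used DESeq2 1.42.0, RLE scaling, other filters, covariates or fewer libraries. Some members of the lists are counted in them but not reported here by name.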

Additional observations from a re-analysis of the deposited data

Results flagged for a closer look

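In groups of 4 libraries, 256 sets of values were examined for a single library far from the other 3, and 15 were found; chance gives about 1 in 20. ECM 2 stood highest for Cxcl10 (237.0 CPM, next 85.3), Mt1 (2490 CPM, next 1090), Fcgr4 (37.0 CPM, next 21.3) and Serping1 (87.4 CPM, next 41.0). ECM 3 was lowest for Fcrls, at 4.07 CPM beside 10.3. ECM 4 stood highest for Ttr (367 CPM, next 7.09), Sdf2l1 (7.86 CPM, next 5.46) and Lct (1.55 CPM, next 0.582). Treated ECM 4 stood highest for the myelin genes Mbp (6330 CPM, next 4430), Ugt8a (118 CPM, next 89.1) and Fa2h (75.4 CPM, next 56.6). It was also highest for 3 immune genes: Cd3g (1.13 CPM, next 0.275), Mmp8 (0.529 CPM, next 0.133) and Tigit (0.529 CPM, next 0.11). Treated ECM 1 stood highest for Fgf16, at 2.2 CPM beside 0.995.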

How the results depend on the processing

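Every called gene that could be fitted kept its direction under all 22 alternatives, but the number of calls moved. The alternatives reuse the libraries in which these genes were called, so the kept direction was largely fixed in advance and is no separate support. Beside the 1214 genes changed between treated and untreated ECM (460 genes higher in treated than untreated ECM and 754 genes lower in treated than untreated ECM), DESeq2 gave 2151 (808 and 1343), GC-content offsets 2071 (970 and 1101), the cerebellum score as covariate 1731 (717 and 1014), and the fit without ECM 2, ECM 3 and control 4 2256 (1031 and 1225). Without ECM 2 and ECM 3 there were 581 (207 and 374). With 1 library left out, totals ran from 550 to 2093, higher genes from 184 to 804 and lower genes from 366 to 1297. RLE scaling (1245), no count filter (1095), the 8 libraries alone (1049) and omission of the displaced genes (1227) stayed within 1.5 times. With the replicate number as a block there were 542 calls (168 higher, 374 lower). In this fit 84 of the 109 called named genes kept their call, and the losses given above for single genes do not include it. The labels do not say that equal numbers pair libraries, and the deviations of same-numbered treated and untreated libraries correlated at -0.262, -0.0421, 0.314 and -0.0702; no treated library correlated best with its own number. The cause of these changes was not tested. Genes at a few reads per library have wide errors, and fold changes from 0 reads depend on the floor.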

Other observations

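Gene families were grouped by their symbols after the results had been seen, so their counts are descriptions, and some of the genes were already counted in the lists above. Of 11 tested genes of the Ifi200 family, sensors of DNA that interferons induce, 7 fell, with a median log2 fold change of -2.22, beside 5.16% called lower over all tested genes. None of those 7 is in a list above. Of 9 Ms4a membrane proteins, found on many leukocytes, 7 fell, with a median of -1.96, 2 of them (Ms4a6c and Ms4a4c) list members. Among killer cell lectin-like receptors (Klr genes) 4 of 5 fell, with a median of -2.2, and Klrk1 and Klrd1 are list members.

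Among the families examined, 4 had rises and no fall: Kctd (4 of 21), Sox (2 of 17, Sox8 and Sox21, transcription factors of neural and glial development), Fzd (2 of 9) and Hes (1 of 7), beside 3.15% called higher over all tested genes.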
